A study of Mus musculus with 18 samples.

Results

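The genes described are *Nr4a1*, *Nr4a2* and *Nr4a3*, which encode the NR4A nuclear receptors, and *Tox* and *Tox2*, which encode a pair of HMG-box transcription factors. They were chosen by name as factors tied to chronic antigen-receptor signaling, and they are 5 of the 37236 genes in the table of normalized counts. Earlier results of these data were known when the 5 genes and the gene lists below were chosen. Shares of all genes given beside their counts are thus descriptions and not tests. All 5 averaged 10 or more normalized counts per sample, the filter that 11992 genes passed for testing. The study asked whether loss of the orphan nuclear receptor NR2F6 acts together with blockade of the PD-1/PD-L1 checkpoint in T cells that infiltrate B16-OVA tumors, a mouse melanoma line that carries ovalbumin as a model antigen. C57BL/6 mice, wild-type or *Nr2f6*-/-, received 500000 tumor cells under the skin and then 0.5 mg of anti-PD-L1 (clone 10F.9G2) or of the control antibody IgG2b (LTF-2), injected into the peritoneum from d3 on. Tumors were taken on d14, T cells were enriched with CD4 and CD8 beads, pooled and sorted for CD3, and RNA was sequenced from the 3′ end of transcripts. There were 3 samples of wild-type mice with IgG2b, 6 of wild-type mice with anti-PD-L1, 3 of *Nr2f6*-/- mice with IgG2b and 6 of *Nr2f6*-/- mice with anti-PD-L1. Age is not given in the labels.

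Several features of this model limit what a value stands for. The mice lack *Nr2f6* in all their cells and not in T cells alone, while the injected tumor cells were not deficient. CD4 and CD8 T cells were sequenced together in each sample, so a higher level could come from more cells of one kind or from more RNA per cell, and these cannot be told apart. The labels do not say whether each sample came from 1 mouse, and the p-values measure the spread between these samples. Libraries numbered 28 to 39 hold replicates 1 to 3 of every group and are called the first library set. Libraries 43 to 48, the second set, hold only anti-PD-L1 samples, replicates 4 to 6 of both genotypes. Reads assigned to genes numbered between 12473391 and 18609482 per sample, and 3 reads, taken as the detection floor, corresponded to between 2.46 and 3.64 normalized counts. *Nr2f6* had 0 reads in all 9 *Nr2f6*-/- samples and between 20.2 and 201 normalized counts in the 9 wild-type samples.

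NR4A receptors are orphan nuclear receptors that bind DNA without a known natural ligand, and their genes are switched on within a short time of antigen-receptor stimulation through calcium, NFAT and cyclic AMP signals. TOX and TOX2 are induced by sustained NFAT activity, and TOX is required for the formation and persistence of exhausted CD8 T cells, the state in which T cells under lasting antigen exposure carry PD-1 and other inhibitory receptors. NR4A and TOX proteins have been described as acting downstream of NFAT in tumor-infiltrating T cells, and *Nr4a1* is also expressed by macrophages and monocytes.

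On the mouse assembly GRCm38, which mm10 stands for, *Nr4a1* (ENSMUSG00000023034.7) lies at chr15:101254269-101274795 on the plus strand and *Nr4a2* (ENSMUSG00000026826.13) at chr2:57106830-57124003 on the minus strand. *Nr4a3* (ENSMUSG00000028341.9) lies at chr4:48045153-48086447 on the plus strand and *Tox2* (ENSMUSG00000074607.11) at chr2:163203125-163324170 on the plus strand. *Tox* (ENSMUSG00000041272.11) is the longest at 305 kb, at chr4:6686353-6991557 on the minus strand. GENCODE gives these genes between 4 and 6 transcripts each. Exons of *Tox* overlap those of *Gm11802* on the other strand, and because the strand setting of the counting is not given in the sources used here, the *Tox* counts may include reads of that gene. No exon of the other 4 overlaps another gene. The 3′ reads do not tell transcript isoforms apart.

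The promoters are shown because they differ in a feature that the choice of genes did not use. RefSeq sequences of GRCm38.p6, from 250 bases before the transcription start to 50 after it, were matched for 4 of the 5 genes, all but *Tox*. Each is printed 5′ to 3′ from base -250 up to the start, or up to the first annotated exon where one comes earlier. The start of *Nr4a1* in RefSeq lies inside the gene span given above, which begins further upstream. Capitals mark TGACG or its reverse complement CGTCA, a motif that was chosen after the sequences were seen. It is only a part of the cyclic AMP response element (CRE) and is called the CRE core here, so a match need not be a full CRE.
*Nr4a1*, chr15:101266596-101266845, plus strand: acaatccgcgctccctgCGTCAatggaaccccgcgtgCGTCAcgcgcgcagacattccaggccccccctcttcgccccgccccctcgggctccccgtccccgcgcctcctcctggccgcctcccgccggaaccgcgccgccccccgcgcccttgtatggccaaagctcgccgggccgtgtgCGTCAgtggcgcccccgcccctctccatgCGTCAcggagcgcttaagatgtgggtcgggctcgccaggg
*Nr4a2*, chr2:57124004-57124253, minus strand: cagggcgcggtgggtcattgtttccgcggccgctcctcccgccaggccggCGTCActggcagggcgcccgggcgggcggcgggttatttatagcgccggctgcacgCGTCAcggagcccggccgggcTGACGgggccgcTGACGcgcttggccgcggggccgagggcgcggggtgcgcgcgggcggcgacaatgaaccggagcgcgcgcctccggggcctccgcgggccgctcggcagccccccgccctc
*Nr4a3*, chr4:48045055-48045152, plus strand: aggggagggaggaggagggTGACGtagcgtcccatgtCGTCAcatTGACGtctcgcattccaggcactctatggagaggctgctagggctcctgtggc
*Tox2*, chr2:163202877-163203124, plus strand: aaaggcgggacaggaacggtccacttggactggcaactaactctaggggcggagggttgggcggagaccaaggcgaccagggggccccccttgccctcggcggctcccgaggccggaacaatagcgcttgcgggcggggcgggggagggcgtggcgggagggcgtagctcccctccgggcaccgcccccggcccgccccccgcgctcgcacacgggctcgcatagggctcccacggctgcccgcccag

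Over the full windows *Nr4a1*, *Nr4a2* and *Nr4a3* each held 4 copies of the CRE core, and *Tox2* held 0. Of the 27025 promoters in the RefSeq table, 21.0% held at least 1 copy and 0.252% held at least 4. Because the CRE core was chosen after these sequences were seen, the shares are a description and not a test. Of 4 motifs listed earlier, the NR4A element AAAGGTCA (in 1.46% of all promoters), the nuclear receptor core AGGTCA (16.0%), which is contained in it, and the AP-1 site TGANTCA (7.93%) were in none of the 4 windows on either strand. The NFAT core GGAAA (61.3% of all promoters) was found once, in that of *Nr4a2*. These matches describe letters in a short window and say nothing of binding.

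The NR4A and TOX genes differed in how their levels lay across the groups. *Nr4a1* was lower with anti-PD-L1 than with IgG2b in both genotypes, 3.34-fold in wild-type and 3.35-fold in *Nr2f6*-/- mice. These folds pool the library sets, of which only the first holds IgG2b samples. In the first set alone the wild-type call held. The *Nr2f6*-/- log2 fold change there was -1.08 and did not pass the test. *Tox2* was 4.93-fold higher with anti-PD-L1 in *Nr2f6*-/- mice, and *Tox* was 2.07-fold higher in *Nr2f6*-/- mice with anti-PD-L1 than in wild-type mice with IgG2b. *Nr4a2* passed the test in no comparison and *Nr4a3* in none by the main test. Fold changes here are on the scale of log2(normalized count + 1) and were tested with limma over all 11992 genes, with p-values adjusted by the Benjamini-Hochberg method and a threshold of 0.05.

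**Figure D1:**
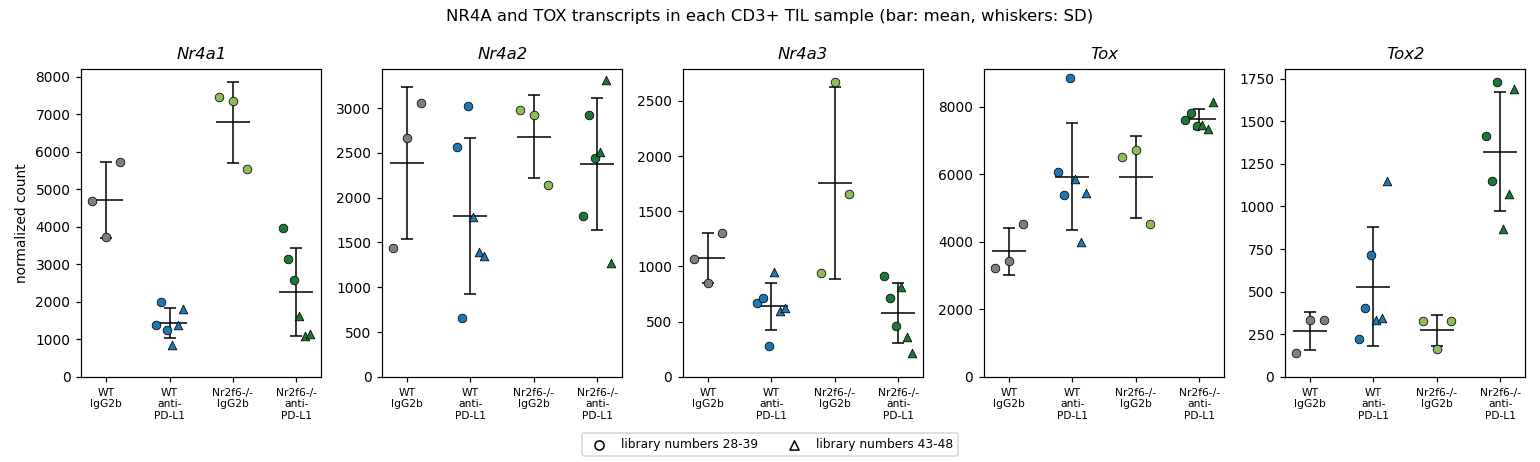
Normalized counts (linear axes from 0) of the 5 genes in each of the 18 samples by group, with circles for the first and triangles for the second library set, bars for group means and whiskers for SD. *Nr4a1* samples with anti-PD-L1 lie below the IgG2b samples of the same genotype, and all 6 *Tox2* values of *Nr2f6*-/- mice with anti-PD-L1 lie above the IgG2b samples of both genotypes.

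PD-L1 blockade in wild-type mice was the first comparison. Of the 5 genes 1 passed the test, *Nr4a1*, against 0.242% of all genes tested. Likewise 1 of 5 had groups whose samples did not overlap, against 4.54% of all genes. *Nr4a1*, the NR4A member best known as an immediate-early gene of the T cell receptor, measured 4697, 3721 and 5735 normalized counts with IgG2b. With anti-PD-L1 it measured 1390.0, 1985, 1246, 851, 1374 and 1807. Each sample with the antibody was thus below each control. The means were 4718 ± 1007 (SD, n = 3) and 1442 ± 406 (SD, n = 6), and the log2 fold change fell by 1.74 (SE 0.32, 95% interval -2.40 to -1.08, limma adjusted p = 0.00927). This was 3.34-fold lower. The call ended without either of 2 control samples, with an adjusted p of 0.0662 without replicate 1 of wild-type IgG2b and 0.140 without replicate 3. It also ended with the library set as a covariate, at a log2 fold change of -1.35 and an adjusted p of 0.0551, and held in the first library set alone, at -1.62 and 0.00854.

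In wild-type mice the other members did not pass the test. *Nr4a3* measured 1070.0, 854 and 1303 normalized counts with IgG2b and 669, 713, 281, 947, 598 and 626 with anti-PD-L1. Here 5 of 6 samples with anti-PD-L1 lay below all controls (log2 fold change -0.81, SE 0.42, limma adjusted p = 0.719). *Nr4a2* spread widely, from 1437, 2662 and 3061 with IgG2b to 2564, 659.6, 3026, 1779.8, 1395 and 1344 with anti-PD-L1 (-0.50, SE 0.35, limma adjusted p = 0.837). Its groups overlapped over most of their range. *Tox* measured 3219.7, 3421 and 4516 with IgG2b and 6053, 5391, 8832, 5863, 3992 and 5434 with anti-PD-L1, and 5 of 6 samples were above all controls (0.65, SE 0.20, limma adjusted p = 0.281). *Tox2* measured 141, 336 and 335 with IgG2b and 220.3, 402, 717, 332, 343 and 1152 with anti-PD-L1 (0.84, SE 0.45, limma adjusted p = 0.746). A single sample, replicate 6, stood highest among these *Tox2* values, and 4 of 6 were above all controls.

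Blockade in *Nr2f6*-/- mice was the second comparison, and 2 of the 5 genes passed the test, *Nr4a1* lower and *Tox2* higher, against 0.325% of all genes. Groups did not overlap for 4 of 5, against 5.12% of all genes. *Nr4a1* measured 7468, 7358 and 5549 with IgG2b and 3972, 3129, 2588, 1613, 1095 and 1154 with anti-PD-L1. No sample with anti-PD-L1 reached the lowest control. The means were 6792 ± 1078 (SD, n = 3) and 2258 ± 1166 (SD, n = 6), and the log2 fold change fell by 1.74 (SE 0.32, 95% interval -2.40 to -1.09, limma adjusted p = 0.0104). In the anti-PD-L1 group the first library set measured 3230 ± 697 (SD, n = 3) and the second 1287 ± 284 (SD, n = 3), with no overlap between the sets. The first set alone gave a log2 fold change of -1.08 with an adjusted p of 0.118. Without replicate 1 or 2 of *Nr2f6*-/- IgG2b the adjusted p was 0.0768 or 0.0820.

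*Tox2* measured 326, 164 and 326 normalized counts in *Nr2f6*-/- mice with IgG2b and 1413, 1152, 1730.0, 868, 1072 and 1690.2 with anti-PD-L1. The lowest sample with anti-PD-L1 was well above the highest control. From 272 ± 93.6 (SD, n = 3) to 1321 ± 349 (SD, n = 6), the log2 fold change was 2.30 (SE 0.45, 95% interval 1.38 to 3.22, limma adjusted p = 0.0134). The sets lay close together, at 1432 ± 289 (SD, n = 3) and 1210.2 ± 428 (SD, n = 3). With the first set alone the log2 fold change was 2.44 but the adjusted p was 0.113. Leaving out replicate 2 or 3 of *Nr2f6*-/- IgG2b gave 1.97 and 2.46, with adjusted p of 0.136 and 0.0507.

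The other members in *Nr2f6*-/- mice missed the threshold. *Nr4a3*, which shares its DNA-binding domain type with the other NR4A receptors, measured 941, 2670.5 and 1657 with IgG2b and 911, 715, 464, 813, 363 and 216 with anti-PD-L1. The groups did not overlap, though the highest sample with anti-PD-L1 came close to the lowest control. Its log2 fold change was -1.63 (SE 0.42, limma adjusted p = 0.103), and DESeq2 on the recovered reads gave -1.60 with an adjusted p of 0.0151. *Nr4a2* overlapped, with 2976, 2922 and 2145 against 1793, 2927, 2439.5, 2514, 3309 and 1275 (-0.23, SE 0.35, limma adjusted p = 0.895). *Tox* measured 6493, 6711 and 4515 with IgG2b and 7612, 7801, 7428, 7455, 7339 and 8146 with anti-PD-L1. All 6 were above the controls and close to one another, and the difference was small (0.39, SE 0.20, 95% interval -0.02 to 0.80, limma adjusted p = 0.534).

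**Figure D2:**
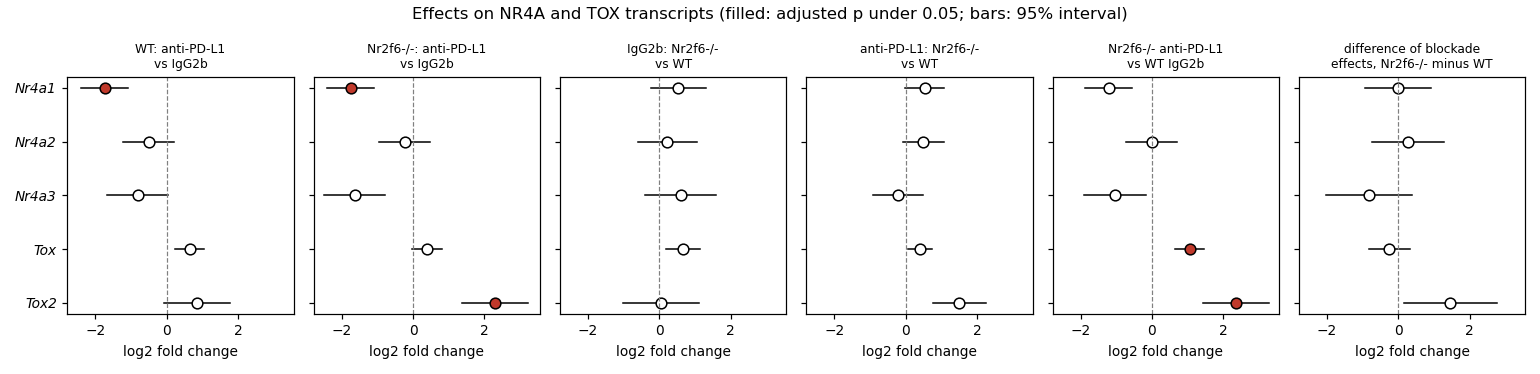
Log2 fold changes (points) with 95% intervals (lines) of the 5 genes in the 5 group comparisons and in the difference of the blockade effects, filled where the limma adjusted p was under 0.05. Filled points are *Nr4a1* at -1.74 in both blockade comparisons, *Tox2* at 2.30 in *Nr2f6*-/- mice, and *Tox* at 1.05 and *Tox2* at 2.35 in *Nr2f6*-/- mice with anti-PD-L1 against wild-type mice with IgG2b.

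For loss of *Nr2f6* under the control antibody 0 of the 5 genes passed the test by limma. The background was 0% of all genes as well, with 641 genes at an unadjusted p under 0.05, 0 genes called by edgeR and 88 by DESeq2, of which 0 were among these 5. Samples separated for 0 of the 5, against 14.2% of all genes. The log2 fold changes of *Nr2f6*-/- over wild-type were 0.53 (95% interval -0.23 to 1.29) for *Nr4a1*, 0.60 (-0.39 to 1.59) for *Nr4a3* and 0.66 (0.19 to 1.13, limma adjusted p = 0.846) for *Tox*. For *Nr4a1*, *Nr4a3* and *Tox* 2 of 3 *Nr2f6*-/- samples were above all wild-type samples. *Nr4a2* at 0.22 and *Tox2* at 0.05 were near 0, and both turned negative when samples were centred on the CD3 genes. The interval of *Tox2*, from -1.01 to 1.11, is wide.

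Under PD-L1 blockade 0 of the 5 genes passed the test between genotypes by limma, against 0.175% of all genes. Samples separated for 0 of the 5, against 0.592% of all genes. *Tox2* had the largest difference of the 5, 2.84-fold higher in *Nr2f6*-/- mice (log2 fold change 1.51, SE 0.37, 95% interval 0.76 to 2.26, limma adjusted p = 0.0791). Among the *Nr2f6*-/- samples 3 of 6 were above all wild-type samples, of which the highest, replicate 6 at 1152, stood far above the other 5. Without that sample the log2 fold change was 1.78 and the adjusted p 0.0258, and DESeq2 gave 1.32 with 0.0313. Within the first library set the log2 fold change was 1.82 and within the second 1.19, with adjusted p of 0.156 and 0.750.

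*Nr4a1* differed by 0.53 between the genotypes under blockade (SE 0.26, 95% interval -0.01 to 1.07, limma adjusted p = 0.519), and the library sets were not alike. Values of the first set were 2588 to 3972 in *Nr2f6*-/- and 1246 to 1985 in wild-type mice, a log2 fold change of 1.07 with an adjusted p of 0.0811. In the second set they were 1095 to 1613 and 851 to 1807, at -0.02. *Tox* was at 0.40 (0.07 to 0.74, limma adjusted p = 0.393) and *Nr4a2* at 0.50 (-0.08 to 1.08, 0.605). *Nr4a3* at -0.22 (-0.92 to 0.48, 0.881) changed sign in the first library set alone, at 0.39.

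With both interventions against neither, *Nr2f6*-/- mice with anti-PD-L1 against wild-type mice with IgG2b, both TOX genes were higher, and 2 of 5 genes passed the test against 0.617% of all genes. These 2 were also the only ones of the 5 whose groups did not overlap, against 6.17% of all genes. *Tox* rose from 3719 ± 698 (SD, n = 3) to 7630.1 ± 301 (SD, n = 6), a log2 fold change of 1.05 (SE 0.20, 95% interval 0.64 to 1.46, limma adjusted p = 0.00920). *Tox2* rose from 270.4 ± 112 (SD, n = 3) to 1321 ± 349 (SD, n = 6), a log2 fold change of 2.35 (SE 0.45, 95% interval 1.43 to 3.27, limma adjusted p = 0.00920), or 5.09-fold. The same control samples serve in this comparison and in blockade of wild-type mice, and the same treated samples in blockade of *Nr2f6*-/- mice. *Tox* lost its call when each sample was centred on its CD3 genes (0.50, adjusted p = 0.237), and without replicate 1 or 2 of wild-type IgG2b (0.0916 and 0.101). *Tox2* lost its call without replicate 1 of that group, at 1.93 and 0.131.

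The NR4A genes did not pass in this comparison. *Nr4a1* was at -1.21 (SE 0.32, limma adjusted p = 0.0841), *Nr4a3* at -1.03 (SE 0.42, 0.380) and *Nr4a2* at -0.00 (SE 0.35). For *Nr4a1* and *Nr4a3* 5 of 6 samples lay below all controls. *Nr4a1* passed with the CD3 genes as reference (-1.76, adjusted p = 0.00702) and without replicate 1 of the *Nr2f6*-/- anti-PD-L1 group, its highest sample (-1.41, 0.0323).

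Whether the effect of blockade differed between genotypes was tested as a difference of differences. It passed for 0 of the 5 genes and 0% of all genes by limma, with 596 genes at an unadjusted p under 0.05, 0 called by edgeR and 76 by DESeq2, of which 0 were among the 5. *Tox2* had the largest estimate, 1.46 (SE 0.64, 95% interval 0.16 to 2.76, limma adjusted p = 0.974). *Nr4a1* was at -0.01 with an interval from -0.94 to 0.92, and at 0.54 in the first library set alone, the set that holds the controls. The estimates were 0.27 (-0.74 to 1.28) for *Nr4a2*, -0.82 (-2.03 to 0.39) for *Nr4a3* and -0.26 (-0.83 to 0.32) for *Tox*.

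Ordered by mean level, *Nr4a1* and *Nr4a2* ran from wild-type anti-PD-L1 through *Nr2f6*-/- anti-PD-L1 and wild-type IgG2b to *Nr2f6*-/- IgG2b. *Nr4a3* had the anti-PD-L1 groups in the other order. *Tox* and *Tox2* ran from wild-type IgG2b through *Nr2f6*-/- IgG2b and wild-type anti-PD-L1 to *Nr2f6*-/- anti-PD-L1. The NR4A genes thus had their highest mean, and the TOX genes their second lowest, in *Nr2f6*-/- mice with IgG2b. No neighbours in these orders passed the test where they were compared. The pair that was not tested, *Nr2f6*-/- IgG2b beside wild-type anti-PD-L1 for the TOX genes, had means of 5907 ± 1209.8 (SD, n = 3) and 5928 ± 1596 (SD, n = 6) for *Tox* and of 272 ± 93.6 and 528 ± 349 for *Tox2*, and overlapped in both.

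*Tox4*, a relative of TOX that is widely expressed, lay between 764 ± 282 (SD, n = 6) normalized counts in wild-type anti-PD-L1 and 1086 ± 83.8 (SD, n = 3) in *Nr2f6*-/- IgG2b and passed in no comparison by limma, with an adjusted p of at least 0.752. *Tox3* had at most 1 read in any sample, below the detection floor.

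Genes that antigen-receptor signals induce at once were in part lower with anti-PD-L1, as *Nr4a1* was. Of 13 listed, 12 were tested, and *Egr3* had 0 reads in every sample. In wild-type mice 3 of the 12 passed the test as lower with anti-PD-L1, against 0.242% of all genes. A log2 fold change below 0 was found for 10 of 12 and for 57.3% of all genes, with medians of -1.13 and -0.10. The 3 were *Fos*, a component of AP-1 (-2.69, limma adjusted p = 0.0130), *Dusp1*, a MAP kinase phosphatase (-1.47, 0.000774), and *Egr1*, an early growth response factor (-1.28, 0.0169). The 2 of 12 above 0 on the log2 scale were *Dusp2* and *Egr2*. With IgG2b and anti-PD-L1, *Dusp2* measured 8568 ± 1113 (SD, n = 3) and 11029 ± 3317 (SD, n = 6). *Egr2* measured 391 ± 342 and 388 ± 273. The part of macrophage RNA and of cell handling in the differences of this list was not tested. In *Nr2f6*-/- mice 1 of 12 passed as lower, *Dusp1* (-1.12, limma adjusted p = 0.0146), against 0.192% of all genes. Here 9 of 12 and 52.6% of all genes were below 0, with medians of -1.08 and -0.04. Of *Fos*, *Dusp1* and *Egr1*, it was *Egr1* whose level in *Nr2f6*-/- mice was about equal with the antibodies, 5178 ± 1235 (SD, n = 3) and 5320.2 ± 1491 (SD, n = 6), while *Nr4a1* was 3.35-fold lower.

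The wild-type means of *Egr1* were 6000.0 ± 1361 (SD, n = 3) with IgG2b and 2521 ± 782 (SD, n = 6) with anti-PD-L1, and under blockade it was higher in *Nr2f6*-/- than in wild-type mice (1.08, limma adjusted p = 0.0197). The difference of its blockade effects between genotypes was 1.30 (SE 0.36) and did not pass the test (limma adjusted p = 0.755). In the first library set *Egr1* measured 3468 to 6749 normalized counts in *Nr2f6*-/- and 2226 to 3748 in wild-type mice, and in the second 3506 to 6185 and 1724 to 3184. It was the single gene of the 12 called by genotype under blockade, where 10 of 12 and 49.6% of all genes lay above 0, with medians of 0.62 and -0.00. With IgG2b 6 of 12 lay above 0 and 0 were called.

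Among 11 surface genes of exhausted T cells that were tested, PD-1 (*Pdcd1*) and TIM-3 (*Havcr2*) among them, 0 passed the test for blockade in either genotype. The medians were 0.34 in wild-type and 0.55 in *Nr2f6*-/- mice, and in the latter 10 of 11 were above 0 against 47.1% of all genes. *Entpd1*, which encodes the ectonucleotidase CD39, was the single one called, higher in *Nr2f6*-/- than in wild-type mice under blockade (1.27, limma adjusted p = 0.0133) and with both interventions against neither (1.63, 0.00698). Its mean was 724 ± 215 (SD, n = 3) in wild-type IgG2b, 933 ± 278 (SD, n = 6) in wild-type anti-PD-L1, 1696 ± 542 (SD, n = 3) in *Nr2f6*-/- IgG2b and 2184 ± 345 (SD, n = 6) in *Nr2f6*-/- anti-PD-L1. Unlike *Tox2*, *Entpd1* thus had both *Nr2f6*-/- means above both wild-type means, and under blockade the genotypes did not overlap in either library set. Of 10 upstream and partner factors, such as NFAT members, *Batf* and *Irf4*, 0 were called in any comparison, with medians from -0.01 to 0.42.

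Of 9 progenitor and memory genes, *Tcf7*, which encodes the factor TCF-1 of stem-like T cells, was lower with anti-PD-L1 in wild-type mice (-1.45, limma adjusted p = 0.00912) and with both interventions against neither (-1.49, 0.00618). In *Nr2f6*-/- mice it was at -0.66 (limma adjusted p = 0.366), from a control mean of 2449.9 ± 457 (SD, n = 3) against 4335 ± 723 (SD, n = 3) in wild-type controls. List medians were -0.51 and -0.66 for blockade in wild-type and *Nr2f6*-/- mice, and -0.89 for both interventions, where 9 of 9 and 57.8% of all genes were below 0. Of 7 follicular helper genes tested, a list kept because TOX2 is known in follicular helper T cells, 0 were called, with medians of -0.21 and 0.25 for blockade in wild-type and *Nr2f6*-/- mice.

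**Figure D3:**
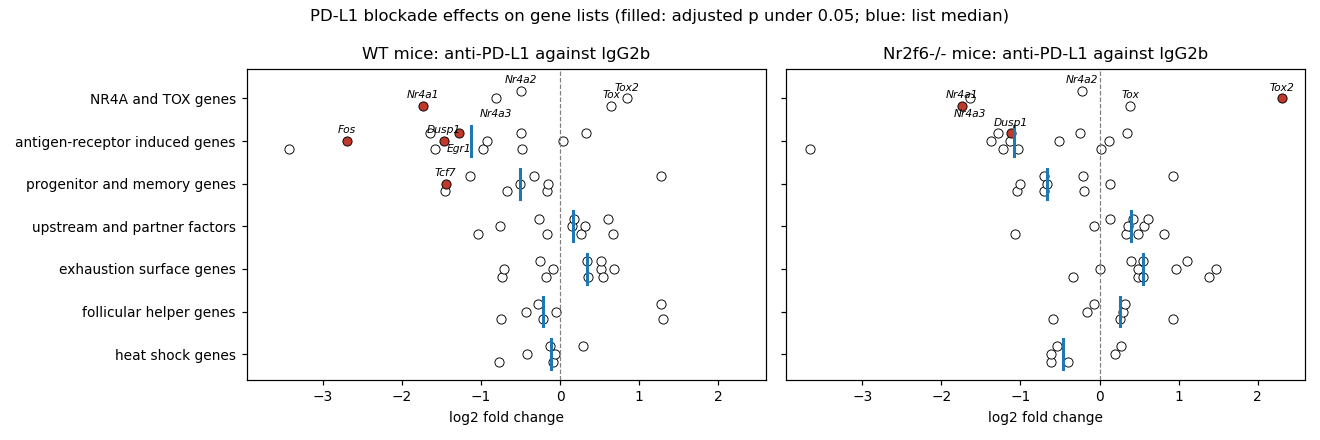
Log2 fold changes of anti-PD-L1 against IgG2b in wild-type mice (left) and *Nr2f6*-/- mice (right) for the 5 genes and 6 lists, 1 point per gene, filled where the limma adjusted p was under 0.05, with blue lines at list medians. Antigen-receptor induced genes have medians of -1.13 and -1.08 beside -1.74 for *Nr4a1* in both, while *Tox2* in *Nr2f6*-/- mice lies above every listed gene at 2.30.

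Transcripts of other cells moved with the treatment as well. The sum of 12 macrophage and monocyte markers was between 15583 and 19735 normalized counts in wild-type IgG2b, 1634 and 6768 in wild-type anti-PD-L1, 9320.3 and 12824 in *Nr2f6*-/- IgG2b and 857 and 2611 in *Nr2f6*-/- anti-PD-L1. As with *Nr4a1*, samples with anti-PD-L1 lay below all controls of their genotype. All 12 markers were below 0 in both blockade comparisons, with medians of -3.26 and -3.68, and *Lyz2* (lysozyme) passed the test in both (-2.83, limma adjusted p = 0.000387, and -2.87, 0.000318). *C1qb*, a complement subunit made by macrophages, passed in *Nr2f6*-/- mice (-3.27, 0.0123). With both interventions against neither all 12 were below 0 and 5 passed as lower, against 0.459% of all genes, namely *Lyz2*, *C1qb*, *Adgre1*, *Mrc1* and *Apoe*. No marker of the 12 was at 0 in all samples of a group. The part of macrophage RNA in the *Nr4a1* difference was not tested. Replicates 1 to 6 of wild-type anti-PD-L1 had sums of 1634, 1746, 4451, 2674, 6768 and 1889, beside *Nr4a1* values of 1390.0, 1985, 1246, 851, 1374 and 1807. Those of *Nr2f6*-/- anti-PD-L1 had sums of 2611, 1125, 2548, 1690.1, 1874 and 857, beside *Nr4a1* values of 3972, 3129, 2588, 1613, 1095 and 1154. The highest sum and the highest *Nr4a1* value were in the same sample in the *Nr2f6*-/- group and in different samples in the wild-type group.

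Markers of T cells were in the other direction but passed no test. The sum of 7 T cell genes ran from 77572 to 92827 in wild-type IgG2b, 83274 to 128866 in wild-type anti-PD-L1, 102479 to 109399 in *Nr2f6*-/- IgG2b and 113386 to 133546 in *Nr2f6*-/- anti-PD-L1. The lowest sum of the last group was above the highest of both IgG2b groups, as for *Tox* and *Tox2*. The part of the T cell share in the *Tox* and *Tox2* differences was not tested. The log2 ratio of *Cd8a* to *Cd4* was 0.89 ± 0.33 (SD, n = 3), 1.15 ± 1.23 (SD, n = 6), 1.16 ± 1.04 (SD, n = 3) and 1.81 ± 0.73 (SD, n = 6) in these groups, with overlapping ranges. The sum of *Cd8a* and *Cd8b1* ran from 18935 to 21884, 12805 to 34822, 22095 to 25416 and 28388 to 40405, so *Nr2f6*-/- samples with anti-PD-L1 were above both IgG2b groups, as they were for *Tox2*. Neither gene passed the test. The part of the CD8 share in the *Tox2* difference was not tested. Platelet markers (*Ppbp* and *Pf4*) summed to 2300.4 to 2611 in wild-type IgG2b and at most 703 elsewhere, with *Ppbp* at 0 in the other groups. Of these, 1 of 2 passed the test as lower for blockade in wild-type mice, against 0.242% of all genes. With both interventions against neither 2 of 2 did, against 0.459%. The sum of the regulatory T cell markers *Foxp3* and *Il2ra* ran from 1348 to 1790 in wild-type IgG2b, 648 to 2062 in wild-type anti-PD-L1, 1903 to 2276 in *Nr2f6*-/- IgG2b and 906 to 1639 in *Nr2f6*-/- anti-PD-L1. In *Nr2f6*-/- mice the antibody groups did not overlap, as for *Nr4a1*, though neither gene passed the test, and the part of these cells in the *Nr4a1* difference was not tested. Sums of 4 dendritic cell markers ran from 381 to 697, 147 to 421, 272 to 502 and 4.01 to 406 in the same order of groups, and all 4 were below 0 in both blockade comparisons, with medians of -1.89 and -1.25 and 0 called. Neutrophil markers reached at most 249.7, NK cell markers 209 and B cell markers 192. Melanoma marker sums ran from 2351 to 4481, 2011 to 7107, 1144 to 2200 and 736 to 4106 in the same order of groups. The IgG2b groups did not overlap. In *Nr2f6*-/- against wild-type mice 4 of 4 tested melanoma markers were below 0 with either antibody. Their medians were -1.26 with IgG2b and -1.22 with anti-PD-L1, 0 were called, and 54.1% and 50.3% of all genes were below 0. Of 6 heat shock genes, read as signs of cell handling, 0 were called, with medians of -0.11 and -0.46 for blockade in wild-type and *Nr2f6*-/- mice. Their sum in *Nr2f6*-/- anti-PD-L1 samples was 20359 to 28757 in the first library set and 30147 to 38953 in the second, without overlap. In wild-type anti-PD-L1 samples the sets overlapped, at 33443 to 38331 and 33394 to 41847. The part of cell handling in the differences between sets was not tested.

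**Figure D4:**
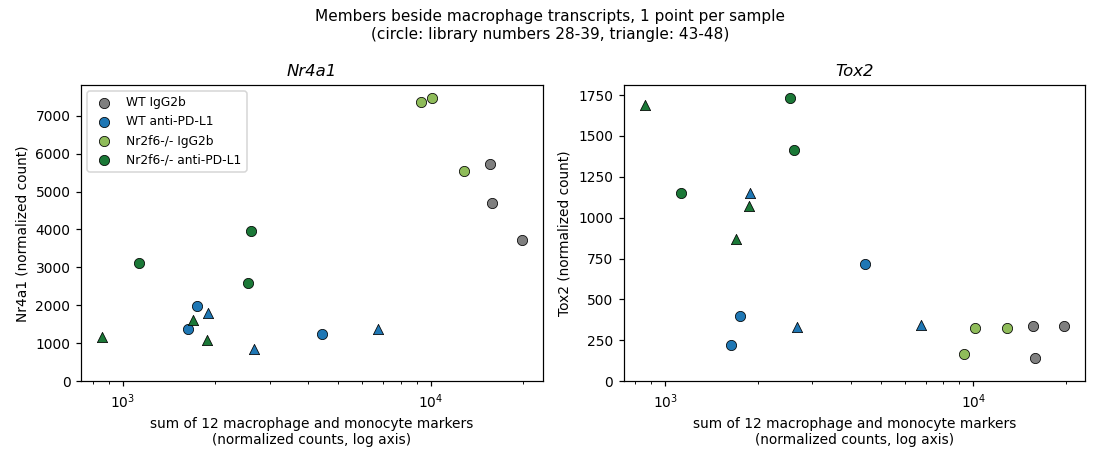
*Nr4a1* (left) and *Tox2* (right) in normalized counts against the summed normalized counts of 12 macrophage and monocyte markers (log axis), 1 point per sample, colored by group, with triangles for the second library set. IgG2b samples lie at sums of 9320.3 or more and anti-PD-L1 samples at 6768 or less, and within the anti-PD-L1 groups *Nr4a1* spans 851 to 3972.

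The genes whose log2 levels followed each member most closely over the 18 samples, among 8249 genes with a mean of at least 100, were *Fosl2* (Pearson r = 0.891), *Nfkbiz* (0.882) and *Junb* (0.873) for *Nr4a1*, with r of 0.567, 0.671 and 0.736 once group means were removed. *Junb*, an AP-1 subunit, showed the same split by library set in *Nr2f6*-/- anti-PD-L1 samples, 13878 to 16558 in the first set and 3071 to 7059 in the second. *Nfkbiz* was split there as well, at 582 to 1004 and 165 to 513. *Fosl2* overlapped between the sets, at 2064 to 4203 and 1240.1 to 3512. For *Tox2* they were *Nkg7* (0.831) and *Ccl5* (0.828), which are expressed by cytotoxic T cells, and *Gimap4* (0.826), a GTPase of lymphocytes. *Gimap4* (0.834) also led for *Tox*, before *Dnajc9* (0.822) and *Plek* (0.812). For *Nr4a3* they were *Tmem123* (0.821), *Pdia6* (0.812) and the chemokine gene *Ccl2* (0.784), and for *Nr4a2* *Nsd1* (0.857), *Eya3* (0.844) and *Rhof* (0.838). With group means removed, r in the order named was 0.518, 0.488 and 0.529 for *Tox2* and 0.563, 0.589 and 0.584 for *Tox*. It was 0.805, 0.718 and 0.692 for *Nr4a3* and 0.864, 0.799 and 0.805 for *Nr4a2*.

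Between members r was 0.727 for *Nr4a1* with *Nr4a3* and 0.656 for *Tox* with *Tox2*, and 0.448 and 0.207 within groups. *Nr4a2* had r of 0.257 with *Nr4a1* and 0.140 with *Nr4a3*. *Nr4a3* with *Tox2* had r of -0.657. The points share the 4 group means and the library sets, so these values are descriptions over 18 samples.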

How the data were processed

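RNA of CD3+ TILs was measured in 18 samples, grouped by the labels into wild-type or *Nr2f6*-/- mice with IgG2b (3 each) or anti-PD-L1 (6 each). Libraries were made with a QuantSeq 3′ kit from total RNA. The authors trimmed reads with Cutadapt and Trimmomatic, dropped those under 22 nucleotides, aligned to mm10 by STAR and then, for what remained, by Bowtie2, kept the primary alignment, counted genes with HTSeq and used DESeq2. Versions, annotation and strand setting are not given in the sources used here. The authors deposited 1 signal value per gene and sample, the read count divided by a size factor, called the normalized count here. Every value was a multiple of 1 step per sample, and division by it gave whole reads for 100% of values (tolerance 0.01), with size factors from 0.823 to 1.22. In 2 libraries the step was close to 1, so their values were nearly whole as deposited. No columns were identical among 153 pairs. Floors cover counting error only.

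limma (version 3.58.1, R 4.3.3) was fitted with eBayes and trend to log2(normalized count + 1) of the 11992 genes with a mean of at least 10, as 4 group means over 18 samples, because the deposited values are not counts. Tests were two-sided, with Benjamini-Hochberg adjustment over all genes tested and a threshold of 0.05. edgeR (4.0.16) and DESeq2 (1.42.0) on recovered reads, pseudocounts of 0.5 and 10, no filter or a mean of 50, equal totals, centring on *Cd3d*, *Cd3e*, *Cd3g* and *Cd247*, the library set as a covariate, the first set alone, the replicate block and leaving out each sample were alternatives. The second set alone was added after the data were seen. The tests were also run on simulated reads, with changes set in the *Nr2f6*-/- anti-PD-L1 group only and no difference between library sets. Their outcome is not reported here.

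The 5 genes and the lists were chosen with earlier results of these data known. Besides the 5 genes, *Nr2f6*, *Tox3* and *Tox4*, the text names the 3 genes of highest Pearson correlation with each member over the samples (mean of at least 100, predicted genes left out) and the list genes past the threshold. *Pdcd1*, *Havcr2*, *Batf* and *Irf4* are named as examples of their lists. *Dusp2* and *Egr2*, and *Junb*, *Nfkbiz* and *Fosl2* by library set, were chosen after their values were seen. Of 12 exhaustion surface names 11 had a row. Positions are from GENCODE and promoters from RefSeq.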

Additional observations from a re-analysis of the deposited data

How the results depend on the processing

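Over 29 alternatives and the second library set alone, 821 of 875 recomputed log2 fold changes of the 5 genes in 6 comparisons kept their direction and their side of the threshold, 18 lost and 6 gained a call and 30 turned sign. Leaving out a sample from outside the groups of a comparison cannot change the log2 fold change of that comparison. The 821 thus include directions that were fixed in advance. No value that passed the threshold turned sign. For blockade in wild-type mice 1 of the 5 genes passed, and 0 did with no filter on low values, with the library set as a covariate and with the replicate block, and 0 to 1 when 1 sample was left out. For blockade in *Nr2f6*-/- mice 2 passed, and 0 did with no filter, 0 in the first library set alone, 1 with the replicate block and 0 to 2 without 1 sample. With no filter 20903 genes were tested and the adjusted p of *Nr4a1* was 0.0524 and 0.0671 and that of *Tox2* 0.0561. Between genotypes under blockade 0 passed, and 1, *Tox2*, did with the replicate block (adjusted p = 0.0477), 1 with DESeq2 and 0 to 1 without 1 sample. With both interventions against neither 2 passed, and 0 to 3 did without 1 sample. In the other 2 comparisons the count was 0 under every alternative run. The replicate block gave *Nr4a1* -1.35 in both blockade comparisons (adjusted p = 0.0884 in wild-type and 0.0655 in *Nr2f6*-/- mice). It kept *Tox2* in *Nr2f6*-/- mice at 2.28 (0.0222). No replicate number occurs in both library sets, so the replicate block also takes up the difference between the sets. It is thus not separate from the library-set covariate. The median log2 fold change of all genes was the same with either setting, -0.0875 for blockade in wild-type and -0.0382 in *Nr2f6*-/- mice. The labels give samples of different groups no link besides the number. Deviations from group means correlated between -0.029 and 0.037 in 21 pairs of the same number, 0 of them over 0.1. Of 18 samples, 5 correlated best with their own number. These correlations cannot show whether samples of the same number were prepared together. The cause of the changes in calls was not tested.

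Values that turned sign were all uncalled. Between genotypes with IgG2b, *Nr4a2* was at -0.0119 and *Tox2* at -0.19 when centred on the CD3 genes, and leaving out 1 sample gave *Nr4a2* -0.11 to 0.44 and *Tox2* -0.37 to 0.38 (-0.12 without replicate 1 or 3 of *Nr2f6*-/- IgG2b). Between genotypes under blockade *Nr4a1* was at -0.0172 in the second set alone and *Nr4a3* at 0.39 in the first set alone and -0.44 to 0.035 without 1 sample. With both interventions *Nr4a2* was at 0.0715 with the covariate or the replicate block, 0.0427 in the first set alone, 0.0089 with edgeR and -0.33 to 0.21 without 1 sample. The difference of blockade effects of *Nr4a1* was 0.0505 with equal totals, 0.0072 with CD3 centring, 0.54 in the first set alone, 0.12 with edgeR and with DESeq2, and -0.20 to 0.17 without 1 sample.

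Over all genes the calls ranged from 6 to 94 for blockade in wild-type mice (29 in the reported test), 8 to 230 in *Nr2f6*-/- mice (39), 0 to 184 between genotypes under blockade (21) and 10 to 330 with both interventions (74), 0 to 88 between genotypes with IgG2b (0) and 0 to 76 for the difference (0), the highest being DESeq2 except for 330 with CD3 centring. Centring on the CD3 genes moved the median of all genes by -0.22 to -0.55 in the 5 group comparisons and turned the split of higher and lower calls with both interventions from 19 and 55 to 3 and 327, in *Nr2f6*-/- blockade from 16 and 23 to 5 and 37, and between genotypes under blockade from 11 and 10 to 3 and 10. Under DESeq2 these splits were 92 and 85, 143 and 87, and 84 and 100, and in wild-type blockade 36 and 58 in place of 0 and 29.

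With 3 controls per genotype, each of the 5 calls in the reported test was lost when 1 or another control sample was left out. The second library set has no controls, so the effect of treatment within a set can be had from the first set alone. The lowest read count of a member in any sample was 160, and the effect of depth was not tested.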
